A study of Mus musculus with 16 samples.

Results

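The cell cycle genes of the mouse ventricle were followed here as 53 genes, 35 that act in mitosis and 18 that act in S phase. They were chosen by name, and a gene was kept where its normalized count reached 10 in at least 4 of the 16 libraries. All 53 of the 53 listed genes met this rule, of 22372 genes in the table and 13331 that met the same rule and were tested. RNA was sequenced from ventricles of C57BL/6J mice that were 10 to 12 weeks old when the experiment began, with 4 mice in each of 4 groups. Sham-Veh mice had the chest opened without a constriction and received vehicle, and TAC-Veh mice had the transverse aorta constricted, which overloads the left ventricle with pressure, and received vehicle. Sham-THZ1 and TAC-THZ1 mice had the same operations and received THZ1, a covalent inhibitor of Cdk7, Cdk12 and Cdk13. It was injected into the peritoneum at 10 mg/kg, in 2 daily doses that began on postoperative day 1 and ended on day 60. A library was made from ventricle tissue of 1 mouse, so all its cell types were mixed and p-values measure the spread between mice.

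A dividing cell copies its DNA in S phase and separates the copies in mitosis. Genes for DNA copying are switched on by E2F factors once the Rb family is phosphorylated, and mitotic genes follow under the MuvB core with B-Myb and Foxm1, which acts through a promoter element called the cell cycle homology region (CHR). Cdk7 is part of the general transcription factor TFIIH, where it phosphorylates RNA polymerase II, and it is also the kinase that activates Cdk1 and Cdk2. Cdk12 and Cdk13 are related kinases of RNA polymerase II. Most adult cardiomyocytes do not divide, and after pressure overload division is known mainly from fibroblasts, endothelial cells and immune cells.

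The promoters of both gene sets are shown first, because short words in them, which were not used to choose the genes, stood at different shares in the sets. RefSeq promoter windows, 250 bases before to 50 bases after the start, from the table of assembly GRCm38.p6, located on NCBIM37, were used for 45 of the 53 genes, 30 mitotic and 15 S-phase. A gene counted if any of its windows held the word, while the share of all promoters counts single windows. The CHR word TTTGAA was searched on both strands and was found in 23 of the 30 mitotic genes (76.7%), in 2 of the 15 S-phase genes (13.3%) and in 17.9% of all 32851 promoters. From 100 bases before the start to 50 after it, the word was present in 22 of the 30 mitotic genes, in 2 of the 15 S-phase genes and in 8.01% of all promoters. The stretches below hold the 120 bases that end at the base before the start in 5 mitotic genes. Their fall with THZ1 is described further on, and they had the smallest p there among mitotic genes with the word in those bases. Other mitotic genes that fell have the word only after the start, such as Cdca3, or not in the window, such as Birc5 and Nusap1. TTTGAA and its reverse complement TTCAAA are in capitals.
Prc1: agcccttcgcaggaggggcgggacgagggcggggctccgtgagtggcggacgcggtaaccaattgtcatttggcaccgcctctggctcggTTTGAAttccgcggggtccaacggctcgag
Mki67: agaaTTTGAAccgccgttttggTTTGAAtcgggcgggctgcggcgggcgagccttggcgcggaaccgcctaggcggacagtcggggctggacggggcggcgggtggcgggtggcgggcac
Kif11: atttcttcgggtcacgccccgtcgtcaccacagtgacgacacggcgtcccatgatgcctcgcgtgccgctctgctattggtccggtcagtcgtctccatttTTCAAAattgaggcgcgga
Top2a: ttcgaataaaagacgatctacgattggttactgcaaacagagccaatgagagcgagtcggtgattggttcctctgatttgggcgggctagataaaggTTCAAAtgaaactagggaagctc
Ect2: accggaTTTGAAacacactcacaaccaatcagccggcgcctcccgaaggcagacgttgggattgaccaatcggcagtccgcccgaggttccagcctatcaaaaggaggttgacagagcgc
The Prc1 stretch is chr7:87439242-87439361 on the plus strand, Mki67 is chr7:142908063-142908182 on the minus strand and Kif11 is chr19:37450752-37450871 on the plus strand, all on NCBIM37 (mm9). Top2a is chr11:98885504-98885623 and Ect2 is chr3:27052801-27052920, both on the minus strand. The Prc1 stretch ends inside the annotated gene, which begins at 87439336, and Prc1 has another window that also holds the word. Cenpf moved against the other mitotic genes with constriction and with the drug in constricted hearts. Its promoter has the word at the third base after the start. That place does not set Cenpf apart, since Kif23 has the word there too, and Spc25 and Racgap1 have it only after the start. All 3 of these fell with THZ1 in constricted hearts. The 120 bases before the Cenpf start hold no such word (chr1:191511966-191512085, minus strand).
Cenpf: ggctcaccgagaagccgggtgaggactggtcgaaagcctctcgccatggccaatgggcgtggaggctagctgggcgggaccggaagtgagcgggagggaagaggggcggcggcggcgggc
The E2F words TTTCCCGC, TTTGGCGC, TTTCGCGC and TTTGCCGC were searched on both strands, and overlapping matches were allowed. They were found in 7 of the 15 S-phase genes (46.7%), Mcm3, Mcm5, Mcm6, Mcm7, Cdc6, Cdt1 and Uhrf1, in 1 of the 30 mitotic genes, Cdk1, and in 2.26% of all promoters. In the narrower window, from 100 bases before the start to 50 after it, they were found in 4 of the 15 S-phase genes, in 0 of the 30 mitotic genes and in 1.27% of all promoters. The 250 bases before the start are shown for 4 of them, with E2F words in capitals. These 4 had the smallest p for THZ1 in constricted hearts among S-phase genes with such a word in those bases. In Mcm6 and Mcm5 a pair of words on opposite strands overlaps.
Mcm6: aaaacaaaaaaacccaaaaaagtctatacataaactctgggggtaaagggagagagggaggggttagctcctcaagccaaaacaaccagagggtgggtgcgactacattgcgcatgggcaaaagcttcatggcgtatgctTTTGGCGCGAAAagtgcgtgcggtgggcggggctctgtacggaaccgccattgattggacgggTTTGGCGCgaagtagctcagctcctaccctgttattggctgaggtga
Mcm5: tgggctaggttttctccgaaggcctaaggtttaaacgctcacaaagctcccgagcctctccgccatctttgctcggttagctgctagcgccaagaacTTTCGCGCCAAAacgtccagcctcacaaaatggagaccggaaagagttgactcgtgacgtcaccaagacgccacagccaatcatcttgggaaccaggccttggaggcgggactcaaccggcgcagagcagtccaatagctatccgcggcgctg
Cdc6: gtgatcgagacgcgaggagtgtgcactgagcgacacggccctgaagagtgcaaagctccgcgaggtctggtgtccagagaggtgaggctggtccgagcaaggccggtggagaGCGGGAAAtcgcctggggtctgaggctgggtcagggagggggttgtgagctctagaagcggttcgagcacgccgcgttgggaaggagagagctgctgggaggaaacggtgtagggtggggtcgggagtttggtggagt
Uhrf1: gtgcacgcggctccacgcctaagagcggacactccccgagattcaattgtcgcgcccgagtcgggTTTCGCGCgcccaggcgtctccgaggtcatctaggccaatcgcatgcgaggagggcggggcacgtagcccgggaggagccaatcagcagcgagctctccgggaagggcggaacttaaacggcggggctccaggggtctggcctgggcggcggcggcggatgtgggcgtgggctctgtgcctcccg
Mcm6 lies at chr1:130256283-130256532 on the minus strand, Mcm5 at chr8:77633158-77633407, Cdc6 at chr11:98769215-98769464 and Uhrf1 at chr17:56443486-56443735, the last 3 on the plus strand. The Cdc6 and Uhrf1 stretches lie inside the annotated genes, which begin at 98769115 and 56442744, so they come before a later start. Uhrf1 has another window, which holds no E2F word. The word CCAAT, bound by NF-Y, was present in 23 of the 30 mitotic genes, in 9 of the 15 S-phase genes (60.0%) and in 37.4% of all promoters. These matches describe letters in the windows, and binding was not measured.

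**Figure D1:**
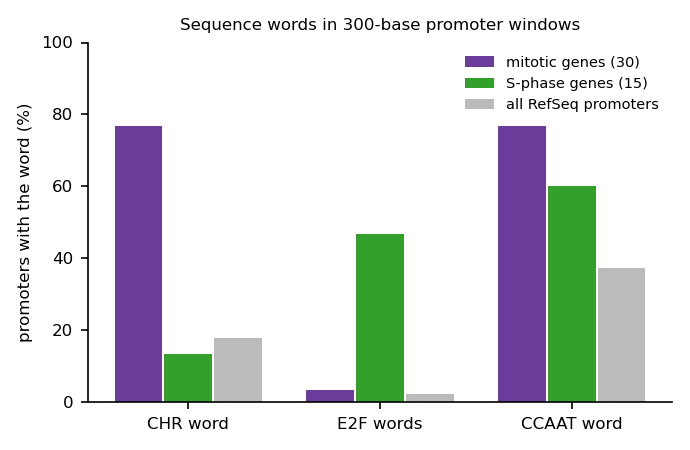
Share (y axis, percent) with the CHR word, an E2F word or CCAAT (x axis), as bars. For the 30 mitotic and 15 S-phase genes, a gene counted if any of its 300-base promoter windows held the word. For all RefSeq promoters, single windows were counted. The CHR word stood in 76.7% of the mitotic genes and the E2F words in 46.7% of the S-phase genes, against 17.9% and 2.26% of all promoters.

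The libraries held 21431703 to 35812869 reads assigned to genes, and the 35 mitotic genes together drew 684 to 4365 reads in a library, so many single genes rested on few reads (Cdk1 on 16 to 145). Per kilobase of exon, Pcna had the highest mean level among the S-phase genes in Sham-Veh (216 normalized counts per kb), and Cenpf the highest among the mitotic genes (67.3 per kb). Most mitotic genes were far lower, such as Mki67 at 14.1 per kb, Cdk1 at 10.8 per kb and Kif2c at 1.73 per kb. Of the 40-base stretches of their exons, 62.2% of Ccnb1, 56.6% of Pcna, 34.98% of Uhrf1, 31.0% of Tk1, 26.6% of Tyms and 25.2% of Mcm7 also occur elsewhere in the genome, so the levels of these genes are uncertain. Cdt1 and Foxm1 overlap another protein-coding gene on the same strand, which adds to the uncertainty of their levels, and Mcm7, Top2a, Ndc80, Nusap1 and Racgap1 hold annotated small RNA genes on theirs. Ccnb1, Kif2c and Ttk met the rule of 10 normalized counts in 4 libraries only through the TAC-Veh libraries, the group where they were highest. Their differences from TAC-Veh are therefore a description. The main limma counts and medians that involve TAC-Veh are also given for the other 32 mitotic genes. Library means and counts of non-overlap, fold thresholds, left-out libraries and other tests include all 35. Library 2 of TAC-Veh was the highest of its group in 32 of the 35 mitotic genes and library 4 of Sham-THZ1 in 32 of 35, and results that rest on these libraries are given with and without them.

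As a description of each library, the log2(normalized count + 1) values were averaged over the 35 mitotic genes. This mean level was highest in TAC-Veh, at 5.67 ± 0.38 (SD, n = 4), followed by Sham-Veh at 5.05 ± 0.05, Sham-THZ1 at 5.02 ± 0.46 and TAC-THZ1 at 4.37 ± 0.27. All 4 TAC-Veh libraries lay above all Sham-Veh libraries, and 3 of the 4 TAC-THZ1 libraries lay below every sham library, the exception being library 4 at 4.62, which lay above library 2 of Sham-THZ1 at 4.55. Over the 18 S-phase genes the order was the same, with TAC-Veh at 6.48 ± 0.18, Sham-Veh at 6.23 ± 0.07, Sham-THZ1 at 6.12 ± 0.06 and TAC-THZ1 at 6.09 ± 0.19. The S-phase means thus spanned a narrower range than the mitotic means, and neighbouring groups in the order overlapped by library except TAC-Veh and Sham-Veh in the mitotic mean. In bulk tissue, fewer cells of a dividing type and less RNA per cell cannot be told apart.

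**Figure D2:**
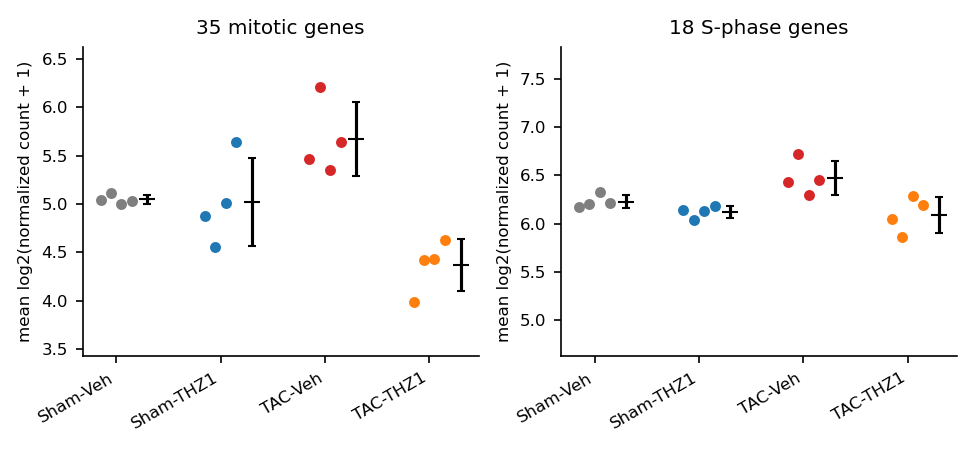
Mean log2(normalized count + 1) over the 35 mitotic genes (left) and the 18 S-phase genes (right) in each library (points) of the 4 groups, with group mean and SD in black and a y axis of the same span in both panels. The mitotic mean ran from 5.67 in TAC-Veh to 4.37 in TAC-THZ1, and the S-phase mean from 6.48 to 6.09.

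The first comparison asked how pressure overload changed these genes. In TAC-Veh against Sham-Veh, 13 of the 35 mitotic genes rose, 1 fell and 21 did not pass the test at an adjusted p under 0.05 (limma, Benjamini-Hochberg over 13331 genes), while 21.4% of all genes tested rose and 23.6% fell. The median log2 fold change of the mitotic genes was 0.69 (1.62-fold), with 34 of 35 above 0, against a median of -0.0030 over all genes. Of the 18 S-phase genes 2 rose (11.1%) and none fell, with a median of 0.18. The count of mitotic genes depended on single libraries and on the test: 6 rose without TAC-Veh library 2, 20 without TAC-Veh library 3, 21 with DESeq2 and 24 with edgeR. The study's methods set fold thresholds for genes higher in TAC (log2 change of at least 1) and lower with THZ1 in TAC (-0.89 or less). Here these thresholds were applied in both directions, and the limit of 1 also in the other comparisons. Under them, 4 mitotic genes, Kif2c among them, rose and Cenpf fell, while 4.64% of all genes rose and 3.37% fell. Birc5, Bub1b, Cdca3, Nusap1, Racgap1, Spc25 and Cenpf passed whichever 1 of the 16 libraries was left out, and the other 7 mitotic calls did not. All of those 7 were lost without TAC-Veh library 2, and Cdc20, Cdk1, Kif11, Ndc80 and Tpx2 were also lost without at least 2 of the Sham-Veh libraries taken 1 at a time. Without Ccnb1, Kif2c and Ttk, 12 of 32 mitotic genes rose, with a median of 0.68.

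Cdca3, which takes part in the destruction of a mitosis-blocking kinase, was at 15.9, 26.5, 26.5 and 17.2 normalized counts in Sham-Veh and at 45.9, 72.9, 49.5 and 45.1 in TAC-Veh. Every TAC-Veh library was above every Sham-Veh library. Its log2 fold change was 1.28 ± 0.25 (SE), with an adjusted p of 0.000614 by limma. Birc5, the survivin subunit of the chromosomal passenger complex, went from 21.2, 19.3, 25.6 and 24.1 to 48.2, 61.5, 52.5 and 38.3, again without overlap. Its log2 fold change was 1.11 ± 0.22 (adjusted p = 0.000634, limma), and it stayed between 1.00 and 1.23 when any 1 library was left out. The other subunits of that complex in the set did not pass the test, with Aurkb at 0.60 ± 0.37 and Cdca8 at 0.77 ± 0.32.

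Among kinetochore genes, Spc25 rose by 1.07 ± 0.26 (adjusted p = 0.00283, limma) and Ndc80 by 0.71 ± 0.26 (adjusted p = 0.0359), both parts of the NDC80 complex that holds microtubules. Nuf2, of the same complex, had 0.59 ± 0.40 and did not pass. Among spindle genes, the microtubule bundler Nusap1 rose by 0.69 ± 0.17, the spindle assembly factor Tpx2 by 0.75 ± 0.27 and the spindle motor Kif11 by 0.66 ± 0.23. The microtubule depolymerase Kif2c, which met the count rule only through TAC-Veh, had 1.24 ± 0.38. Bub1b of the spindle checkpoint (0.69 ± 0.18), Racgap1 of the cytokinesis machinery (0.84 ± 0.23) and Cdc20, which activates the ubiquitin ligase of mitotic exit (0.83 ± 0.29), rose as well. For Cdc20, the lowest TAC-Veh library, at 39.6, was below the highest Sham-Veh library, at 41.4.

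Cdk1, the kinase that drives entry into mitosis, was at 35.01, 32.1, 31.8 and 50.6 in Sham-Veh and at 54.1, 104, 56.5 and 57.1 in TAC-Veh, a log2 fold change of 0.81 ± 0.29 (adjusted p = 0.0307, limma). The groups did not overlap, but library 2 of TAC-Veh stood far above the other libraries of its group. Ccna2, its cyclin partner from S phase to early mitosis, rose by 0.85 ± 0.27 (adjusted p = 0.0166). The mitotic cyclins did not pass, with Ccnb2 at 0.55 ± 0.35 and Ccnb1 at 1.08 ± 0.53. Neither did the proliferation marker Mki67, at 153, 140, 143 and 132 in Sham-Veh and 189, 330, 159 and 234 in TAC-Veh (0.63 ± 0.26, adjusted p = 0.0626), although its groups did not overlap. Top2a, the topoisomerase that untangles chromosomes, had 0.64 ± 0.30 (adjusted p = 0.0895) and also did not overlap, as in 14 of the 35 mitotic genes that were higher in every TAC-Veh library and in 18.2% of all genes. Foxm1, the factor that activates many mitotic genes, was at 0.38 ± 0.20 (adjusted p = 0.135).

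Cenpf, a large protein of the kinetochore and nuclear envelope, was the exception. It was at 483, 1003, 848 and 725 normalized counts in Sham-Veh and at 106, 105, 75.3 and 97.1 in TAC-Veh, so every constricted heart was far below every sham heart. The log2 fold change was -2.95 ± 0.26 (adjusted p = 5.05e-07, limma), 7.71-fold lower, and it lay between -3.15 and -2.80 when any 1 library was left out. No annotated gene overlaps Cenpf on its own strand, and 1.13% of its 40-base exon stretches occur elsewhere in the genome.

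The S-phase genes that rose were Mcm6, a subunit of the replicative helicase, and Tyms, which makes thymidylate for DNA. Mcm6 was at 284, 222, 225 and 240 in Sham-Veh and at 340, 408, 305 and 376 in TAC-Veh, without overlap (0.55 ± 0.16, adjusted p = 0.01002, limma). Tyms was at 52.0, 32.1, 43.3 and 41.4 in Sham-Veh and at 82.3, 123, 63.4 and 69.0 in TAC-Veh, also without overlap (0.96 ± 0.27, adjusted p = 0.00941). The other helicase subunits did not pass, from Mcm4 at -0.03 ± 0.09 to Mcm3 at 0.42 ± 0.20, with Mcm2 at 0.15 ± 0.14, Mcm5 at 0.25 ± 0.24 and Mcm7 at 0.08 ± 0.09. The polymerase clamp Pcna (0.11 ± 0.08), the cyclins Ccne1 (0.04 ± 0.21) and Ccne2 (0.11 ± 0.15) and the factor E2f1 (0.49 ± 0.33) did not pass either.

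The next comparison asked what THZ1 changed in constricted hearts. It shares the TAC-Veh libraries with the first comparison, so values of both are set side by side and no overlap between them is given. In TAC-THZ1 against TAC-Veh, 33 of the 35 mitotic genes fell (94.3%), Cenpf rose and Ccnb1 did not pass the test, while 14.2% of all genes tested fell and 15.1% rose (limma, adjusted p under 0.05). The median log2 fold change was -1.35 (2.54-fold lower), against 0.01 over all genes, and in 31 of the 35 genes every TAC-THZ1 library was below every TAC-Veh library, as in 10.5% of all genes. Of the 18 S-phase genes 3 fell (16.7%), none rose and 15 did not pass, with a median of -0.38. Without TAC-Veh library 2, 30 mitotic genes fell with a median of -1.16, and DESeq2 and edgeR each called 34 lower. Of the 34 mitotic genes called in either direction, 31 passed whichever 1 library was left out, and the exceptions were Aurkb, Plk1 and Ube2c. All 3 were lost without TAC-Veh library 2, Aurkb also without TAC-THZ1 library 2 or 4, Plk1 without TAC-THZ1 library 1 or 2 and Ube2c without TAC-THZ1 library 1. With libraries weighted by their scatter 22 mitotic genes fell, and Aurka, Aurkb, Bub1, Cdc20, Kif23, Kif4, Melk, Nuf2, Plk1, Ttk and Ube2c lost their calls, while with only the 2 groups compared 30 fell, and Melk, Plk1 and Ube2c lost theirs. Without Ccnb1, Kif2c and Ttk, 31 of 32 mitotic genes fell, with a median of -1.33. Under the fold thresholds, 31 mitotic and 2 S-phase genes fell and Cenpf rose, while 3.62% of all genes fell and 1.85% rose.

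Prc1, which bundles microtubules between the separating chromosomes, had the largest fall. It was at 75.2, 135, 62.4 and 97.1 in TAC-Veh and at 14.2, 20.4, 18.7 and 29.7 in TAC-THZ1, so the highest treated library was below the lowest vehicle library. The log2 fold change was -2.09 ± 0.27 (adjusted p = 8.95e-05, limma), 4.26-fold lower, after a difference of 0.59 ± 0.27 between TAC-Veh and Sham-Veh that did not pass. The CHR word in its promoter, shown above, lies 30 bases before the start of that window and 5 bases before the start of its other window. Mki67 went from 189, 330, 159 and 234 to 42.6, 59.8, 75.7 and 91.0 (-1.75 ± 0.26, adjusted p = 0.000277) and Top2a from 128, 262, 133 and 207 to 31.7, 47.1, 76.5 and 67.3 (-1.71 ± 0.30, adjusted p = 0.000767). In both, all 4 treated hearts were below all 4 vehicle hearts.

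**Figure D3:**
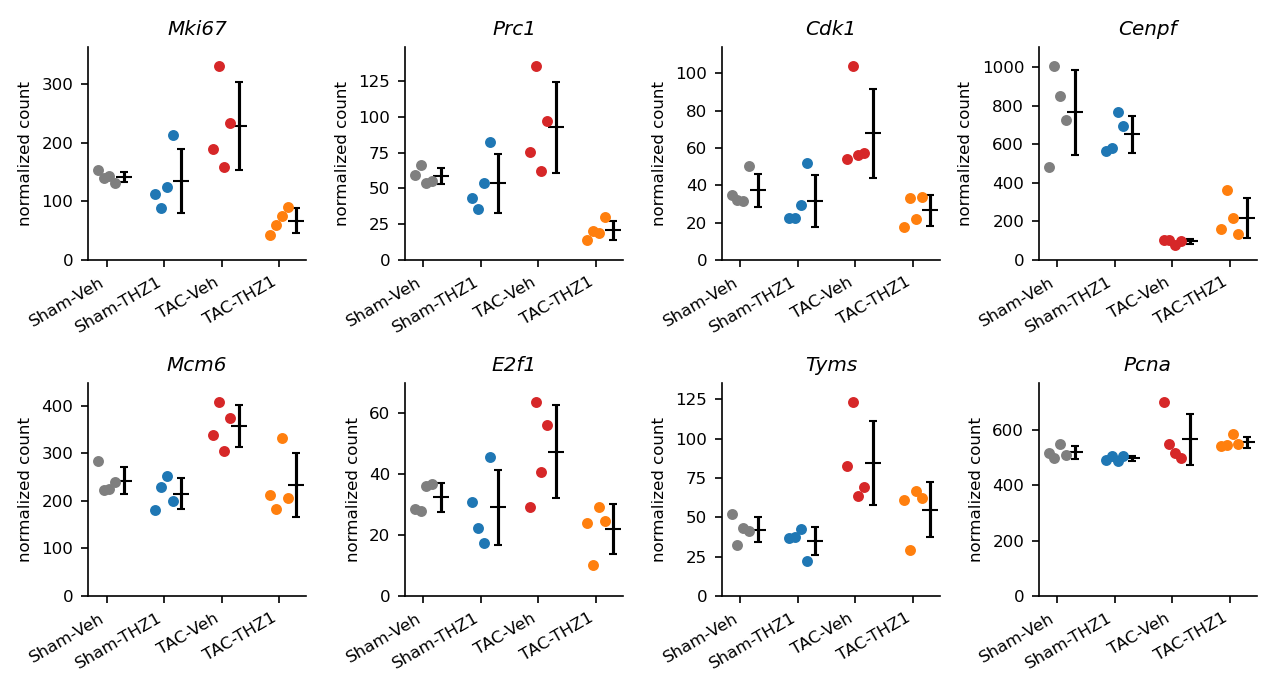
Normalized counts (y axis, from 0) of 4 mitotic genes (top) and 4 S-phase genes (bottom) in each library (points), with the mean and SD of each group of 4 in black. Mki67 and Prc1 were lowest in TAC-THZ1, Cenpf was low in all constricted hearts, and Pcna stayed between 487 and 698.

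The cyclin and kinase genes of mitosis followed the same direction. Ccna2 fell by 1.42 ± 0.27 on the log2 scale, Ccnb2 by 1.69 ± 0.35 and Cdk1 by 1.32 ± 0.29 (adjusted p = 0.00339, limma), and Cdk1 was at 17.5, 33.1, 22.0 and 33.6 in TAC-THZ1. Ccnb1 had -1.17 ± 0.53 (adjusted p = 0.103) at levels of 3.28 to 35.8 normalized counts in constricted hearts, and 62.2% of its 40-base exon stretches occur elsewhere in the genome. The mitotic kinases fell too, with Aurka at -1.23 ± 0.32, Plk1 at -0.87 ± 0.28 and Melk at -1.59 ± 0.45, but none of the 3 passed with library weights (adjusted p = 0.119, 0.121 and 0.132, limma). All 3 chromosomal passenger genes fell, Birc5 by 1.46 ± 0.22, Cdca8 by 1.45 ± 0.32 and Aurkb by 1.22 ± 0.37. The checkpoint genes Bub1b (-0.79 ± 0.18) and Bub1 (-1.62 ± 0.45) fell, and Ttk, which met the count rule only through TAC-Veh, had -1.57 ± 0.34. With library weights Bub1 and Ttk did not pass (adjusted p = 0.122 and 0.0588, limma).

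All 8 spindle motors and bundlers passed as lower, of which Kif2c met the count rule only through TAC-Veh, and among them Tpx2 fell by 1.87 ± 0.27 (adjusted p = 0.00024, limma) and Kif11 by 1.35 ± 0.23. Of the kinetochore genes, Spc25 fell by 1.73 ± 0.26, Cenpe, a motor that moves chromosomes, by 1.53 ± 0.32, Nuf2 by 1.46 ± 0.40 and Ndc80 by 1.16 ± 0.26. The cytokinesis genes Anln, which scaffolds the contractile ring (-1.45 ± 0.28), Racgap1 (-1.23 ± 0.23) and Ect2, which activates RhoA at the cleavage site (-1.18 ± 0.24), fell together. For mitotic exit, Cdca3 fell by 1.62 ± 0.25, Cdc20 by 1.11 ± 0.29 and Ube2c by 1.01 ± 0.31. Foxm1 itself was at 43.5, 62.9, 33.7 and 46.8 in TAC-Veh and at 22.9, 20.4, 18.7 and 24.7 in TAC-THZ1, without overlap (-1.05 ± 0.20, adjusted p = 0.00146). The 23 mitotic genes with the CHR word had a median of -1.32 and the 7 without it a median of -1.46, a description with no test.

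Cenpf again moved the other way, from 106, 105, 75.3 and 97.1 in TAC-Veh to 158, 360, 220 and 133 in TAC-THZ1. All 4 treated hearts were above all 4 vehicle hearts and below all 8 sham hearts, whose lowest value was 483, and 9.53% of all genes were higher in every TAC-THZ1 than in every TAC-Veh library. The log2 fold change was 1.08 ± 0.26 (adjusted p = 0.00534, limma), and with libraries weighted by their scatter it was 1.01 with an adjusted p of 0.0577. Beside this, the summed level of 6 cardiomyocyte markers ran from 613201 to 888262 normalized counts in TAC-Veh, from 950434 to 1182402 in TAC-THZ1 and from 1246730 to 1365719 in Sham-Veh, with 4 of the 6 lower in TAC and 4 of the 6 higher with THZ1 in TAC. Their part in the Cenpf values was not tested.

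Among the S-phase genes, Mcm6 fell from 340, 408, 305 and 376 to 213, 183, 333 and 206, with library 3 of TAC-THZ1 inside the range of TAC-Veh (-0.64 ± 0.16, adjusted p = 0.00709, limma). E2f1, itself an activator of S-phase genes, fell from 29.4, 63.6, 40.6 and 56.2 to 24.0, 10.2, 29.3 and 24.7 without overlap (-1.11 ± 0.33, adjusted p = 0.0191). Rrm2, the ribonucleotide reductase subunit that supplies deoxynucleotides, fell from 121, 75.1, 46.6 and 80.1 to 24.0, 39.5, 45.6 and 56.4, with overlap (-0.93 ± 0.28, adjusted p = 0.0195). The calls of E2f1 and Rrm2 were lost when the fit held only the 2 groups compared, at adjusted p = 0.0711 and 0.0877 (limma). The E2f1 call was also lost without TAC-Veh library 2 or TAC-THZ1 library 2, and the Rrm2 call without TAC-Veh library 1 or TAC-THZ1 library 1. Without library 3 of TAC-THZ1, which was the highest of its group in 9 of the 18 S-phase genes, 7 S-phase genes fell.

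The remaining S-phase genes did not pass. Uhrf1, a partner of the maintenance DNA methyltransferase, had -0.76 ± 0.29 (adjusted p = 0.0604, limma) and Tyms -0.63 ± 0.27 (adjusted p = 0.0915). The other helicase subunits had -0.35 ± 0.14 (Mcm2), -0.39 ± 0.20 (Mcm3), -0.06 ± 0.09 (Mcm4), -0.38 ± 0.24 (Mcm5) and -0.13 ± 0.09 (Mcm7). Pcna had -0.01 ± 0.08, at 542, 546, 584 and 548 in TAC-THZ1 against 698, 547, 514 and 498 in TAC-Veh. Ccne1, Ccne2 and the origin licensing genes Cdc6 and Cdt1 lay between -0.30 and -0.41, while the replication fork genes Cdc45 (0.04 ± 0.15) and Gins1 (0.34 ± 0.25) were above 0.

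**Figure D4:**
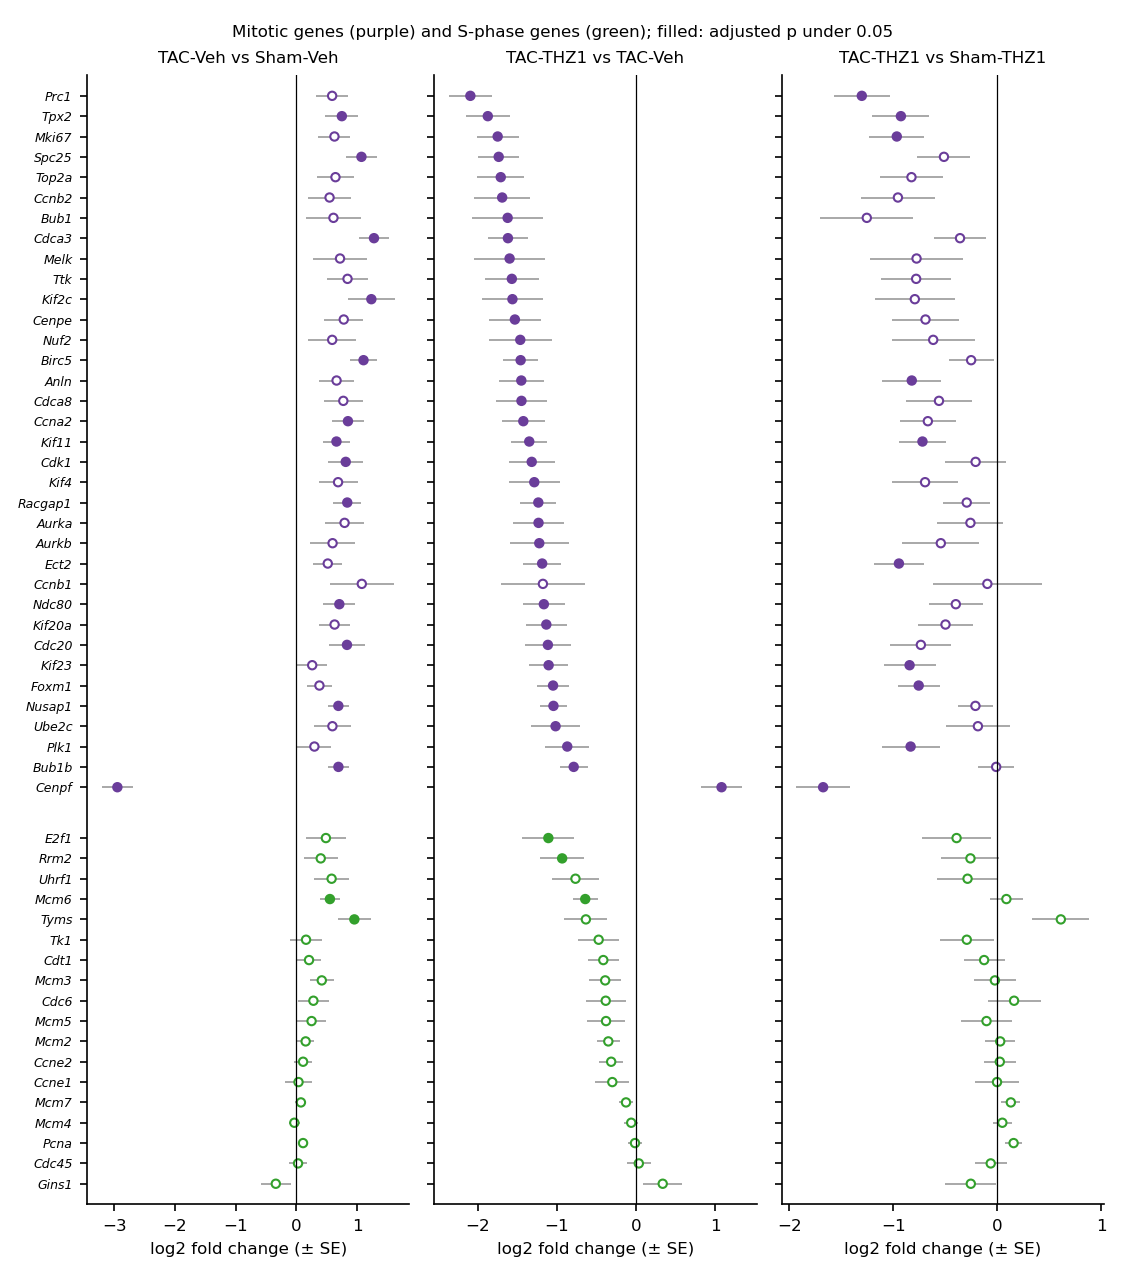
Log2 fold change with SE (x axis) of each gene (rows) in 3 comparisons, for the 35 mitotic genes (purple) and the 18 S-phase genes (green), with filled points where the adjusted p by limma was under 0.05. With THZ1 in TAC, 33 mitotic and 3 S-phase genes fell, and Cenpf lay on the other side of 0.

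Marker genes of other cells were counted in the same fits. The 5 activated fibroblast markers (Postn, Cthrc1, Comp, Fmod and Thbs4) had summed normalized counts of 23827 to 79841 in TAC-Veh, against 1319 to 1928 in Sham-Veh and 2444 to 7340 in TAC-THZ1, and all 5 rose with TAC and fell with THZ1 in TAC. The 6 general fibroblast markers summed to 46152 to 78030, 23913 to 26302 and 25583 to 36619 in the same order, with 4 of 6 higher and then 4 of 6 lower. The 7 macrophage markers summed to 10194 to 12303, 6620 to 8141 and 7530 to 15078, with 4 of 7 higher in TAC and 0 of 7 called with THZ1 in TAC. None of these fibroblast or macrophage markers was at 0 in all libraries of a group. The 5 endothelial markers summed to 16261 to 20895, 18439 to 20303 and 15246 to 16573, with 1 higher and 2 lower in TAC and 2 lower with THZ1 in TAC. The 4 neutrophil markers summed to 34.9 to 205, 14.9 to 43.3 and 127 to 6374, with Ly6g at 0 in every library outside TAC-THZ1. Of the 2 that were tested, 0 were called in TAC and 2 were higher with THZ1 in TAC. The 4 B cell markers summed to 87.0 to 124, 68.1 to 81.7 and 39.3 to 94.0, with 0 of 4 called in TAC and 2 of 4, Cd79a (-0.83 ± 0.30) and Cd79b (-0.93 ± 0.27), lower with THZ1 in TAC. Of 5 mural markers 1 rose and 2 fell in TAC, and 1 fell with THZ1 in TAC. Of 3 epicardial markers 2 rose in TAC and 0 were called with THZ1 in TAC. No erythroid or T cell marker was called in either comparison, with 4 and 1 tested. Over all genes tested, 21.4% rose and 23.6% fell in TAC, and 15.1% rose and 14.2% fell with THZ1 in TAC. The part of these cells in the cell cycle results was not tested.

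In sham hearts, THZ1 was compared with vehicle to see what the drug did without constriction. None of the 53 genes passed the test in Sham-THZ1 against Sham-Veh by limma, DESeq2 or edgeR, and by limma 0 had an unadjusted p under 0.05, while 0.0225% of all genes rose and 0.045% fell (0.015% and 0.045% under the fold thresholds). The median log2 fold change was -0.08 for the mitotic genes, from -0.30 (Cdk1) to 0.47 (Kif2c), and -0.16 for the S-phase genes. Mki67 was at 112, 88.2, 124 and 214 in Sham-THZ1, a spread that covered the whole Sham-Veh range, with a fold change of -0.15 ± 0.26. Prc1 was at 42.9, 35.4, 53.4 and 82.1 (-0.20 ± 0.27) and Mcm6 at 180, 230, 252 and 200 (-0.18 ± 0.16). The cyclin Ccne2, at 64.4, 70.0, 52.1 and 66.9 in Sham-THZ1 and 71.2 to 77.4 in Sham-Veh, was the single gene of the 53 whose groups did not overlap (-0.23 ± 0.15), while 5.05% of all genes were lower and 6.29% higher in every Sham-THZ1 library. Without Sham-THZ1 library 4 the mitotic median was -0.27, and without library 2, the lowest of its group in 24 of 35 mitotic genes, it was 0.09.

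The difference between the THZ1 effects in constricted and sham hearts was tested as an interaction. It was negative and passed in 17 of the 35 mitotic genes (48.6%), positive in Cenpf and passed in none of the S-phase genes, of which 0 had an unadjusted p under 0.05, while 5.62% of all genes were called lower and 4.40% higher (limma). The median interaction was -1.38 for the mitotic genes and -0.23 for the S-phase genes, on the log2 scale, against 0.02 over all genes. The smallest adjusted p was that of Prc1 (-1.89 ± 0.38, adjusted p = 0.00781), followed by Cdca3 (-1.63 ± 0.35), Birc5 (-1.36 ± 0.31) and Spc25 (-1.58 ± 0.36). DESeq2 called 24 mitotic genes lower and edgeR 19, each with no S-phase gene. Under the fold thresholds 16 mitotic genes were lower and Cenpf higher, against 2.19% and 0.953% of all genes. Without Ccnb1, Kif2c and Ttk, 15 of 32 mitotic genes were called lower, with a median of -1.37. Prc1, Cdca3, Birc5, Spc25, Ect2, Tpx2, Kif11, Mki67 and Ccna2 passed whichever 1 library was left out, and the other 9 calls did not. Of those, 8 were lost without Sham-THZ1 library 4 and the Foxm1 call without Sham-Veh library 3. The 8 did not rest on that library alone. Top2a and Ttk were lost without any of 11 single libraries, Racgap1 and Cenpf of 9, Anln of 6, Kif2c and Nusap1 of 5 and Cdc20 of 4. Without the 2 high libraries, TAC-Veh 2 and Sham-THZ1 4, 3 mitotic genes were called with a median of -1.005. Cenpf lost its call (1.36, adjusted p = 0.0838) in that fit.

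The last comparison set constricted against sham hearts, all under THZ1. In TAC-THZ1 against Sham-THZ1, 10 of the 35 mitotic genes fell and none rose, with 35 of 35 below 0 and a median log2 fold change of -0.69, while 12.8% of all genes fell and 11.4% rose (limma). None of the S-phase genes passed by limma, DESeq2 or edgeR, with 1 at an unadjusted p under 0.05 (Tyms, 0.61 ± 0.27) and a median of -0.01. The genes that fell were Prc1 (-1.30 ± 0.27, adjusted p = 0.00368), Cenpf (-1.67 ± 0.26), Ect2 (-0.94 ± 0.24), Foxm1 (-0.75 ± 0.20), Mki67 (-0.96 ± 0.26), Tpx2 (-0.92 ± 0.27), Kif23 (-0.84 ± 0.25), Kif11 (-0.72 ± 0.23), Plk1 (-0.83 ± 0.28) and Anln (-0.82 ± 0.28). Birc5 (-0.25 ± 0.22), Cdk1 (-0.21 ± 0.29) and Bub1b (-0.01 ± 0.18) did not pass. The count was 4 without Sham-THZ1 library 4 or without TAC-THZ1 library 1, 6 without Sham-THZ1 library 1 and 16 without Sham-THZ1 library 2, while Prc1, Cenpf, Ect2 and Foxm1 passed whichever 1 library was left out. In 6 mitotic genes (Plk1, Cenpf, Tpx2, Prc1, Ect2 and Foxm1) every TAC-THZ1 library was below every Sham-THZ1 library, as in 17.7% of all genes, and 1 S-phase gene, Pcna, was above in the same way (0.16 ± 0.08), as in 15.7%. Under the fold thresholds Prc1 and Cenpf fell, while 0.863% of all genes fell and 1.16% rose.

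In the order of the groups, the TAC-THZ1 mean was below the Sham-Veh mean in 35 of 35 mitotic genes and in 14 of 18 S-phase genes, a description with no test. For Plk1, Tpx2, Prc1, Ect2 and Foxm1, 5 of the 35 mitotic genes (14.3%), all 4 TAC-THZ1 libraries were below all 12 other libraries, as were 1.08% of all genes tested and 0 of the S-phase genes. Plk1, the kinase that matures the spindle poles, was at 12.0, 10.2, 13.8 and 12.9 in TAC-THZ1, and its lowest value in the other groups was 16.04. Ect2 was at 15.3, 15.3, 12.2 and 21.8, and its lowest value elsewhere was 23.0.

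Further cell cycle genes, listed by role, were counted in the same fits. These lists too were chosen with earlier results of these data known, so they give no independent support. Of 57 other mitotic genes 52 were tested, and with THZ1 in TAC 30 of them fell (57.7%) and 2 rose (3.85%), with a median of -0.94, against 14.2% and 15.1% of all genes. Those that fell included Hmmr, a spindle protein (-2.34 ± 0.38, adjusted p = 0.000473, limma), the centrosome kinase Nek2 (-2.10 ± 0.35) and Tacc3, which binds spindle microtubules (-1.05 ± 0.13). With TAC, 16 of the 52 rose (30.8%) and 4 fell (7.69%), against 21.4% and 23.6% of all genes. Tacc3 rose by 0.74 ± 0.13 there, and among those that fell were the condensin subunit Ncapd2 (-0.37 ± 0.09) and Pttg1, the securin (-0.33 ± 0.09). With THZ1 in sham hearts none of the 52 passed by limma (1 was higher and 2 lower at an unadjusted p under 0.05). Of 37 other S-phase genes tested, 5 fell (13.5%) and 3 rose (8.11%) with THZ1 in TAC, with a median of -0.14, shares that were no higher than the 14.2% and 15.1% of all genes. Those that fell included E2f7 (-0.90 ± 0.19) and Chaf1b, a histone chaperone subunit (-1.02 ± 0.23), and those that rose were Dut, which removes dUTP (0.46 ± 0.10), Ung, which removes uracil from DNA (0.46 ± 0.12), and Gmnn, which restrains licensing (0.47 ± 0.13). Of 15 genes of the Rb family and the DREAM complex, 3 fell (20.0%) and 1 rose (6.67%) with THZ1 in TAC, against 14.2% and 15.1% of all genes, with E2f3 at -0.39 ± 0.10 and Tfdp2 at 0.42 ± 0.13.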

How the data were processed

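Ventricular RNA of 16 mice, 4 in each of 4 groups, was sequenced from stranded mRNA libraries as single-end reads. The authors aligned reads to mm9 with TopHat2 version 2.1.1, counted them per gene with HTSeq and divided the counts by DESeq2 size factors over all libraries. The deposited signal values are these normalized counts, and in each library 100% of values were whole multiples (tolerance 0.001 reads) of the smallest value, which gave back 21431703 to 35812869 reads a library. An automatic test of these multiples could not be applied to library 3 of TAC-Veh and library 4 of TAC-THZ1, whose smallest value is close to 1, so the count models on recovered reads (edgeR version 4.0.16 and DESeq2 version 1.42.0) served only as alternatives. The main test was limma version 3.58.1 with a trend on log2(normalized count + 1), 1 mean for each of the 4 groups, over 13331 genes with at least 10 normalized counts in at least 4 of 16 libraries. P-values were adjusted by the Benjamini-Hochberg method over all of these genes in each comparison, and fold changes on this scale understate those of low genes. The fits were checked on simulated counts with known changes. Their spread followed an assumed formula and was not taken from these libraries, so the rates do not describe these cell cycle genes. At an adjusted p under 0.05, limma, edgeR and DESeq2 called 94%, 95% and 94% of the 2-fold changes. Of the genes called, 6.73%, 7.18% and 9.43% were false in the same order.

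All 53 genes could be named, with fold changes for the core genes and those with the smallest p in each class, and up to 5 genes of each further list. The genes and lists were chosen with earlier results of these data known. Gene positions came from the GENCODE annotation of NCBIM37, which matched all 22372 genes of the table. Promoters came from the RefSeq table of assembly GRCm38.p6, of which all 49 windows of these genes were found once on NCBIM37 by exact match, and coordinates are given on that build. Alternatives were other pseudocounts, filters, scalings, thresholds and tests, library weights, a replicate block and leaving out each library, and leaving out TAC-Veh library 2 together with Sham-THZ1 library 4 was added after the data had been seen.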

Additional observations from a re-analysis of the deposited data

Results flagged for a closer look

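Of 220 sets of 4 libraries, which were each gene in each group and the mean levels of both gene sets, 15 held a library whose gap to the nearest of the others took up most of the range, and chance marks about 1 set in 20. Of these, 7 were at library 2 of TAC-Veh, which stood high in normalized counts for Ccna2 (152), Cdk1 (104), Plk1 (41.5), Kif2c (38.6), Ndc80 (57.2), Cdca3 (72.9) and Racgap1 (129). Among mitotic genes elsewhere, Cdk1 stood high in library 4 of Sham-Veh (50.6), Kif2c in library 4 of Sham-THZ1 (21.3) and Kif20a in library 4 of TAC-THZ1 (59.4). Among S-phase genes, Mcm5 stood low in library 2 of Sham-THZ1 (66.5), Mcm3 in library 3 of TAC-Veh (132), Ccne1 in library 1 of TAC-Veh (20.0) and Tyms in library 2 of TAC-THZ1 (29.3), and Pcna stood high in library 3 of TAC-THZ1 (584).

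The THZ1 effect differed between constricted and sham hearts, by the interaction term of limma at an adjusted p under 0.05, in 18 genes. Its value on the log2 scale was -1.59 for Mki67, -1.47 for Top2a, -1.52 for Ccna2, -1.36 for Birc5, 1.27 for Cenpf, -1.38 for Kif11, -2.03 for Kif2c, -0.90 for Nusap1, -1.67 for Tpx2, -1.89 for Prc1, -1.46 for Ect2, -1.48 for Anln, -1.58 for Spc25, -1.62 for Ttk, -1.57 for Cdc20, -1.63 for Cdca3, -1.13 for Foxm1 and -1.13 for Racgap1. Kif2c and Ttk reached 10 normalized counts in 4 libraries only through TAC-Veh, the group where they were highest, so their values are given as a description. Of the 18 calls, 9 passed whichever 1 library was left out.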

How the results depend on the processing

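Over 856 recomputed class counts and medians 807 stayed close to the reported value, by a rule that did not check the sign of a median. Counts that stayed at 0 are among them. The mitotic median for THZ1 in sham hearts (-0.08) was 0.09 without Sham-THZ1 2. The S-phase median of TAC-THZ1 against Sham-THZ1 (-0.01) was 0.06 without TAC-THZ1 2. Of 3334 recomputed single-gene values 263 lost and 25 gained a call and 12 changed sign. The mitotic count higher in TAC-Veh than in Sham-Veh (13) was 4 when genes had to average 50 normalized counts (10 genes tested), 21 with DESeq2, 24 with edgeR, 7 with library weights, 6 at an adjusted p under 0.01, 4 with the fold thresholds of the study and 8 without TAC-Veh 2 and Sham-THZ1 4. Leaving out 1 library gave 6 (without TAC-Veh 2) to 20 (without TAC-Veh 3). The S-phase count (2) was 1 at an adjusted p under 0.01 and 0 with the fold thresholds, and 2 to 3 with 1 library left out. With THZ1 in TAC, the mitotic count lower (33) was 9 of 10 at the mean of 50, 22 with library weights, 27 at an adjusted p under 0.01, and 30 to 34 with 1 library left out. The single mitotic gene higher there, Cenpf, became 0 with library weights. The S-phase count lower (3) was 1 with library weights, at an adjusted p under 0.01, with only the groups compared and without both high libraries, and 2 to 7 with 1 library left out, 7 without TAC-THZ1 3. For TAC-THZ1 against Sham-THZ1, the mitotic count lower (10) was 6 at the mean of 50, 2 at an adjusted p under 0.01, 2 with the fold thresholds and 5 without both high libraries, and 4 to 16 with 1 library left out. The S-phase count higher (0) was 1 with library weights and with only the groups compared, and 0 to 1 with 1 library left out, 1 without TAC-Veh 1 or TAC-THZ1 2. In the interaction, the mitotic count lower (17) was 8 at the mean of 50, 1 at an adjusted p under 0.01 and 3 without both high libraries, and 10 (without Sham-THZ1 4) to 22 with 1 library left out, with 11 without Sham-THZ1 1 or TAC-Veh 2. The mitotic count higher (1, Cenpf) was 0 at an adjusted p under 0.01 and without both high libraries, and 0 to 1 with 1 library left out, being lost without any of 9 libraries. The mitotic median interaction (-1.38) was -1.005 without both high libraries, and the S-phase count lower was 0 to 1 with 1 library left out, 1 without TAC-THZ1 3. Among single genes, signs changed only in genes that passed no test. Ccne1 with TAC was -0.0408 without both high libraries and -0.0453 to 0.238 with 1 library left out. Mcm4 with TAC was 0.0037 with library weights and -0.0996 to 0.0330 with 1 left out. Mcm4 with THZ1 in TAC was -0.125 to 0.0073, and Pcna with THZ1 in TAC was 0.0412 with library weights and -0.0671 to 0.0949. The cause of these changes was not tested, beyond the fewer genes or libraries that some settings hold by construction. The labels do not say whether replicate numbers pair the mice, and correlations of expression cannot exclude it. The deviations of same-numbered libraries correlated at -0.43 to 0.16, and 2 of 24 pairs were over 0.1. Of the 16 libraries, 2 correlated best with their own number. With the number as a replicate block, 13 mitotic genes rose with TAC, 33 fell with THZ1 in TAC, 11 fell in TAC-THZ1 against Sham-THZ1 and 16 were lower in the interaction, and 4 S-phase genes fell with THZ1 in TAC. Libraries drew 684 to 4365 reads over all 35 mitotic genes, Cenpf included. The part of counting depth in these changes was not tested.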
